A study of Canis lupus familiaris with 20 samples.

Results

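Complexes II to V of the mitochondrial respiratory chain were followed in muscle RNA of 10 dogs aged 2 years, 4 affected by Duchenne muscular dystrophy (DMD), 2 labelled as escapers of the disease and 4 normal. The labels name no muscle, breed or dystrophin allele, so affected and escaper dogs are known here only as dogs with DMD, which lack dystrophin, the protein that ties the muscle cytoskeleton to the membrane, and escapers as dystrophic dogs with a mild course. Each dog was set against a common reference, RNA from the muscle of 1 normal individual, on 2 canine Agilent arrays, 1 with the dog in Cy5 and 1 in Cy3. All values are log2 ratios of dog over reference, averaged over the 2 arrays, so 0 is the level of the reference and positive values lie above it. A dog is 1 replicate.

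Members were taken by gene name in the array files: names that begin with SDHA to SDHD, UQCR, COX with a number, or ATP5, and CYC1 and CYCS. This gave 18 probes of 15 gene names among 42034 probes, and 17 of the 18 were measured. They hold 4 names of complex II, 7 of complex V, cytochrome c (CYCS), the assembly factor COX17 for complex IV and none for complex III. ATP5SL begins with ATP5 and COX4NB with COX4, but neither encodes a subunit, and both are described apart. Because many dog genes are named in the files by a gene number only, 24 further probes whose number stands for such a symbol in a table of dog genes from RefSeq were added, and 15 nuclear and 7 mitochondrial probes whose description names a subunit. With these, 42 nuclear genes of complexes II to V were measured: 7 of complex II, 9 of complex III, 16 of complex IV and 10 of complex V. Of the 42, 32 encode structural subunits and 10 assembly factors.

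The respiratory chain passes electrons from food to oxygen and stores the energy as a proton gradient across the inner mitochondrial membrane. Complex II feeds in electrons from succinate, complex III hands them to the mobile carrier cytochrome c, complex IV passes them to oxygen, and complex V, ATP synthase, spends the gradient to make ATP. Complex II is encoded by nuclear genes alone, whereas complexes III, IV and V mix nuclear subunits with a few read from mitochondrial DNA (mtDNA). Slow and oxidative muscle fibres are rich in these complexes.

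Probes of 60 bases in 4 sets carry the comparisons that follow, printed 5′ to 3′ as in the array files, with placements on a genome build that the sources used here do not name. The first set holds probes whose description names a gene of mtDNA, and it is shown because its values differ from those of the nuclear genes in 1 dog. MT-CYTB encodes cytochrome b of complex III (chrM:14474-14533, + strand), and MT-CO1 encodes the catalytic subunit of complex IV. Of the MT-CO1 probes, 1 is placed at chrM:5966-6025 on the + strand and another at chr20:4880959-4881018 on the − strand. The MT-ATP6 probe, for a subunit of ATP synthase, has no placement.
MT-CYTB: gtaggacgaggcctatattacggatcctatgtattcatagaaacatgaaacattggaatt
MT-CO1 on chrM: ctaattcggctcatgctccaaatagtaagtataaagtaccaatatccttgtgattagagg
MT-CO1 on chr20: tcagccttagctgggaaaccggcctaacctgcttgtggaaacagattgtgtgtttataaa
MT-ATP6: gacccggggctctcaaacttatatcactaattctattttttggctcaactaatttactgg

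The second set holds both measured probes of UQCR10, a small subunit of complex III, at chr26:25985502-25985561 and chr26:25985598-25985657 on the + strand. The next holds the paired subunits COX4I1 (chr5:69884003-69884062, − strand) and COX4I2 (chr24:24097655-24097714, + strand), the lowest and the highest of 10 dogs in the same animal, and COX7A2 (chr12:39884093-39884122, − strand), which had the smallest p. The placement of the COX7A2 probe covers fewer bases than the 60 of the probe. Capitals mark AATAAA, the common polyadenylation signal, wherever it or its reverse complement occurs. It was found in 11 of the 64 respiratory probes (17.2%) and in 8.53% of all 42034 probes, and the 2 runs in the second UQCR10 probe overlap.
UQCR10 probe 1: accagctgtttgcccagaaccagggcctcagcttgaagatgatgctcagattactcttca
UQCR10 probe 2: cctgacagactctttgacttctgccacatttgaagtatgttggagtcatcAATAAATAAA
COX4I1: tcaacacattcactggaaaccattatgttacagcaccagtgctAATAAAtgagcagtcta
COX4I2: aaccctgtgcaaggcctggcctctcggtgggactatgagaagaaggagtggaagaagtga
COX7A2: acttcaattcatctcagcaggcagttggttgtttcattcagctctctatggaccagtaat

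The last set shows probe pairs of a single gene. Both ATP5G1 probes lie on chromosome 9, at chr9:28450559-28451360 on the − strand and chr9:28452593-28452649 on the + strand, and share no AATAAA. The UQCR11 probes overlap on chromosome 20 (chr20:60433169-60433228 and chr20:60433149-60433210, + strand), and capitals there mark the longest run of bases that both hold, 21 bases.
ATP5G1 probe 1: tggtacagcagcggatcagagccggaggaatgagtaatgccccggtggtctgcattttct
ATP5G1 probe 2: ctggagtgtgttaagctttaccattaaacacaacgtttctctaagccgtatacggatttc
UQCR11 probe 1: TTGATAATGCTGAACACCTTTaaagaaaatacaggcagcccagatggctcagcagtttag
UQCR11 probe 2: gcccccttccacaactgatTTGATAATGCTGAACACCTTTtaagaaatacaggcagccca

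An array had between 30.5% and 60.2% of its probes well above background in the channel of the dog, and the correlation r between both arrays of 1 animal lay between 0.627 and 0.939 across 16008 tested probes. Each of the 5 slides held 2 dogs of 1 group, so slide and group cannot be told apart for the escapers, and no slide holds 2 groups. Of the 42 nuclear genes, 38 were well above background on all 20 arrays, and 13 had saturated spots. Probes of 5 genes (COX4I1, COX6C, CYCS, UQCRC1 and ATP5C1) were saturated on all 8 arrays of normal dogs, so normal levels have only a lower bound there, and a fold is given there, as at least the ratio of mean intensities in the dog's channel, only against a group with no saturated array. Some normal arrays were also saturated for SDHB (4 of 8), UQCRFS1 (3), UQCR10 (7), UQCRH (7), COX7A2 (1), COX7B (2), ATP5A1 (5), ATP5F1 (4) and ATP5O (6), so the sizes printed for these genes are measured values with the normal level cut off on those arrays. Affected 1 and escaper 2 stand apart from the other dogs of their groups in most members, so results are given with and without them. Since whole muscle was sampled, fewer muscle fibres and less of an RNA per fibre cannot be told apart in any value here.

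All 42 nuclear genes had a lower mean in affected than in normal dogs, with COX18 at −0.00 and just above 0 under median centring or no offset, and 40 of 42 had a lower mean in escapers. None passed the threshold after adjustment. The median log2 difference over the 42 genes was −0.76 in affected dogs and −1.13 in escapers, against 0.02 and −0.00 over all tested probes. By contrast, 47% of all tested probes were lower in affected and 50.2% in escaper than in normal dogs. The lowest limma adjusted p (Benjamini-Hochberg over 16008 probes, threshold 0.05) was 0.176 for affected and 0.179 for escaper against normal dogs. Over the whole array 3 probes (0.0187%) passed in affected and 0 (0%) in escaper dogs by limma, with 1992 and 2953 at an unadjusted p under 0.05.

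At an unadjusted limma p under 0.05, 17 of the 42 genes (40.5%) were lower in affected dogs, where 7.38% of all tested probes were. In escapers this held for 24 of 42 (57.1%), against 8.78% of all tested probes. Every affected dog lay below every normal dog in 18 of 42 genes (42.9%), against 7.42% of all tested probes. Both escapers lay below every normal dog in 23 of 42 (54.8%), against 15.7%. The genes were read in the same dogs and share their deviations, so these counts are not independent tests.

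Single dogs carried much of the size. Escaper 2 was the lowest of the 10 dogs in 28 of the 42 genes and affected 1 in 11, and a normal dog was the highest in 35. Still, affected 2, 3 and 4 lay below all 4 normal dogs in 24, 33 and 35 genes, and escaper 1 in 23. Without affected 1 the median difference of affected from normal dogs was −0.52, with 40 of 42 genes below 0. Without escaper 2 the median difference of the remaining escaper was −0.31, with 32 of 42 genes below 0 and 3 lower at an unadjusted p under 0.05, where 2.07% of all tested probes were. Without escaper 1 it was −1.83, and 32 genes passed downward and 1 upward, with the lone dog assumed to vary like the others. In that fit 24.5% of all tested probes passed, 10.3% of all downward.

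The mean over the 7 genes of complex II was −0.49, 0.22, 0.09 and −0.05 in affected 1 to 4, 0.32 and −1.09 in escaper 1 and 2, and 0.62, 0.45, 0.58 and 0.85 in normal 1 to 4. For the 9 genes of complex III it was −0.99, 0.31, 0.01 and −0.06 in affected dogs, 0.39 and −1.48 in escapers and 0.60, 0.62, 0.65 and 0.69 in normal dogs. No affected dog and no escaper reached the lowest normal dog in either mean, a gap that also holds for complexes IV and V. The 16 genes of complex IV averaged −0.52, 0.18, 0.12 and 0.03 in affected dogs, 0.25 and −0.55 in escapers and 0.49, 0.53, 0.58 and 0.68 in normal dogs. The 10 genes of complex V averaged −1.15, 0.38, 0.01 and −0.04 in affected dogs, 0.47 and −1.31 in escapers and 0.54, 0.53, 0.65 and 0.76 in normal dogs. In each of the 4 complexes all normal dogs lay above the reference, affected 2 to 4 and escaper 1 lay below them, from −0.06 to 0.47, and affected 1 and escaper 2 lay lowest. Saturation narrows the range of normal dogs, which over the 5 genes of complex III with no saturated spot ran from 0.53 to 0.84 and over the 6 of complex V from 0.48 to 0.85.

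**Figure D1:**
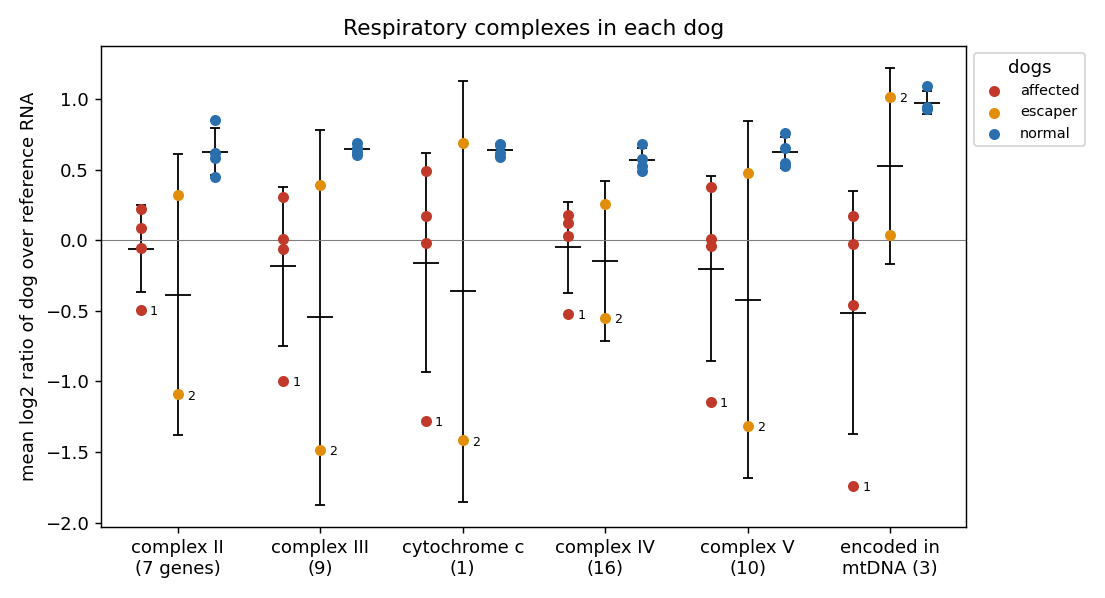
Mean log2 ratio of dog over reference RNA (vertical axis) for the measured genes of each complex, cytochrome c and the genes of mtDNA, with a point for each dog and black bars for the group mean and SD. Affected 1 and escaper 2, marked by their number, are the lowest dogs in the nuclear complexes, while escaper 2 is among the normal dogs for mtDNA.

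The 4 structural subunits of complex II, succinate dehydrogenase, had a median log2 difference of −0.94 in affected and −1.34 in escaper dogs. SDHA, the flavoprotein that oxidises succinate, read −0.97, −0.21, −0.55 and −0.61 in affected dogs, −0.11 and −1.88 in escapers and 0.43, −0.46, 0.28 and 0.83 in normal dogs. The groups overlap because normal 2 lay at the level of the affected dogs, and the difference was −0.86 (SE 0.39, limma adjusted p = 0.408) in affected and −1.27 (SE 0.47, adjusted p = 0.223) in escaper dogs. SDHB, the iron-sulfur subunit, read −1.04, 0.30, 0.14 and −0.06 in affected dogs, 0.50 and −1.76 in escapers and 0.62, 0.97, 0.82 and 0.99 in normal dogs. Neither affected dogs nor escapers overlap with normal dogs in SDHB, with differences of −1.01 (SE 0.45, limma adjusted p = 0.399) and −1.48 (SE 0.55, adjusted p = 0.221).

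SDHC and SDHD anchor the enzyme in the membrane. SDHC read −0.47, 0.44, 0.27 and −0.17 in affected dogs, 0.38 and −1.25 in escapers and 0.34, 0.73, 0.72 and 0.87 in normal dogs, a difference of −0.65 (SE 0.34) in affected dogs. Normal 1 lay below affected 2 and escaper 1 in SDHC. SDHD read −1.11, 0.39, 0.25 and −0.13 in affected dogs, 0.62 and −1.32 in escapers and 1.16, 0.63, 0.87 and 1.60 in normal dogs. Its groups do not overlap, and it had the largest difference among the complex II genes in affected dogs, −1.22 (SE 0.45, limma adjusted p = 0.341), with −1.42 (SE 0.55, adjusted p = 0.235) in escapers.

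The assembly factors of complex II differed less. SDHAF1, which helps load iron-sulfur clusters into SDHB, read 0.24, 0.03, −0.22 and 0.01 in affected dogs, 0.09 and −0.21 in escapers and 0.23, −0.04, 0.39 and 0.31 in normal dogs, and was well above background on 16 of 20 arrays. SDHAF2, which attaches flavin to SDHA, read 0.28, 0.06, −0.20 and −0.01 in affected dogs, 0.19 and −0.54 in escapers and 0.53, 0.32, 0.28 and 0.43 in normal dogs. Both escapers lay below all normal dogs in SDHAF2, and affected 1, low in the subunits, was the highest affected dog for both factors. SDHAF4, which binds flavinated SDHA, read −0.37, 0.53, 0.94 and 0.60 in affected dogs, 0.55 and −0.67 in escapers and 1.02, 1.0001, 0.72 and 0.92 in normal dogs. Differences of these 3 factors from normal dogs were −0.21, −0.35 and −0.49 in affected and −0.28, −0.56 and −0.98 in escaper dogs. The second SDHAF2 probe, placed on chromosome 10 while the first lies on chromosome 18, gave −0.46 in affected and −0.47 in escaper dogs.

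In complex III, all 9 genes were lower in affected and in escaper than in normal dogs, and 5 of 9 had an unadjusted p under 0.05 in each comparison, beside the 7.38% and 8.78% of all tested probes. UQCRB, a small subunit near the ubiquinone site, read −0.83, 0.27, 0.11 and −0.11 in affected dogs, 0.06 and −1.40 in escapers and 0.71, 1.05, 0.77 and 1.06 in normal dogs. The groups do not overlap, and the difference of −1.04 (SE 0.33, limma adjusted p = 0.283) in affected dogs had the smallest p among the nuclear genes of the complex at the probes chosen for each. In escapers it was −1.57 (SE 0.40, adjusted p = 0.189), and −0.84 without escaper 2. UQCRFS1, the Rieske iron-sulfur protein, read −1.54, 0.22, −0.08 and 0.03 in affected dogs, 0.22 and −2.28 in escapers and 0.82, 1.07, 0.91 and 0.85 in normal dogs. Its escaper difference, −1.94 (SE 0.64, adjusted p = 0.203), is the lowest of the 42 genes at the probes chosen for each, and in affected dogs it was −1.26 (SE 0.52, adjusted p = 0.377).

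CYC1, cytochrome c1, which hands electrons to cytochrome c, read −1.48, 0.50, 0.01 and −0.06 in affected dogs, 0.43 and −1.66 in escapers and 0.80, 0.55, 0.93 and 1.17 in normal dogs. Groups do not overlap, with differences of −1.12 (SE 0.49) in affected and −1.48 (SE 0.61) in escaper dogs. At its brighter probe, the second printed, UQCR10 read −1.10, 0.05, −0.18 and 0.16 in affected dogs, 0.44 and −1.92 in escapers and 0.87, 1.07, 0.96 and 0.74 in normal dogs. That probe was saturated in the dog's channel on 7 arrays and gave −1.17 and −1.65, while the first, never saturated, gave −1.46 in affected and −1.95 in escaper dogs.

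UQCR11, the smallest subunit, read −0.30, 0.36, 0.26 and −0.02 in affected dogs, 0.32 and 0.03 in escapers and 0.64, 0.40, 0.35 and 0.74 in normal dogs. Affected 2 reached normal 3 in it, and escaper 2 was close to the reference at this probe, unlike its level in the other subunits. The overlapping UQCR11 probes gave −0.46 and −0.51 in affected dogs and read 0.03 and 0.09 in escaper 2. Another probe, named from its description but placed on chromosome 1, gave −0.89 in affected dogs and read −0.81 in escaper 2. UQCRC2, a core protein, read −1.43, −0.17, −0.54 and −0.58 in affected dogs, 0.06 and −2.69 in escapers and 0.43, −0.61, 0.07 and 0.44 in normal dogs, so normal 2 lay among the affected dogs, and −2.69 in escaper 2 was the lowest value of any dog in the 42 nuclear genes. The probe of the other core protein, UQCRC1, was saturated on arrays of all 3 groups, so no fold is given. UQCRH, the hinge protein, saturated on 7 arrays, and UQCRQ differed by −0.44 and −0.86 in affected and −0.64 and −1.30 in escaper dogs.

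Cytochrome c (CYCS) read −1.28, 0.49, 0.17 and −0.02 in affected dogs, 0.69 and −1.42 in escapers and 0.62, 0.68, 0.59 and 0.67 in normal dogs. All 4 affected dogs lay below the 4 normal dogs, and escaper 2 had the lowest value of the 10 dogs, while escaper 1 cannot be ranked against normal dogs because their arrays were saturated. By intensity in the dog's channel its RNA was at least 1.55-fold lower in affected and at least 1.66-fold lower in escaper than in normal dogs. The measured log2 differences were −0.80 in affected (limma adjusted p = 0.508) and −1.003 in escaper dogs (adjusted p = 0.363). Without escaper 2 the measured escaper difference was 0.05, against normal arrays that were saturated.

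Complex IV, cytochrome c oxidase, held the member with the smallest p and members that stood near or above normal levels. COX7A2, the widely expressed form of a small subunit whose muscle form is COX7A1, read −0.45, −0.19, −0.31 and −0.17 in affected dogs, −0.36 and −0.74 in escapers and 0.38, 0.42, 0.54 and 1.15 in normal dogs. The 6 affected and escaper dogs were under 0 and the 4 normal dogs above it. The difference was −0.90 (SE 0.19, limma adjusted p = 0.176) in affected and −1.17 (SE 0.23, adjusted p = 0.179) in escaper dogs. Unlike most members it was nearly as large without affected 1 (−0.84) or without escaper 2 (−0.98). The COX7A2 probe was flagged and left out on 7 of 20 arrays, so the dogs on those arrays rest on their other array alone. COX6B1, a subunit facing the intermembrane space, read −0.99, 0.07, −0.14 and −0.22 in affected dogs, −0.28 and −1.27 in escapers and 0.50, 0.34, 0.53 and 0.65 in normal dogs. Here too no affected dog or escaper reached a normal one, with differences of −0.82 (SE 0.27) and −1.28 (SE 0.33), and −0.79 without escaper 2.

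COX7C, another small membrane subunit, read −0.90, 0.60, 0.27 and 0.51 in affected dogs, 0.51 and −0.55 in escapers and 1.16, 0.79, 1.06 and 1.63 in normal dogs, and differed by −1.04 (SE 0.36) and −1.18 (SE 0.44), with no overlap. COX7B read −1.99, 0.73, 0.29 and 0.21 in affected dogs, 1.21 and −0.94 in escapers and 1.02, 1.64, 1.46 and 1.499 in normal dogs. It had the largest affected difference of the 42 genes, −1.60 (SE 0.61, limma adjusted p = 0.351), which was −0.996 without affected 1. COX8A, the widely expressed form of its subunit, read −0.40, 0.70, 0.14 and 0.43 in affected dogs, 0.71 and 0.24 in escapers and −0.03, 0.53, 0.65 and 0.89 in normal dogs, with overlap between all groups and differences of −0.29 and −0.03. COX5A, which faces the matrix, differed by −0.77 in affected and −1.12 in escaper dogs, without overlap. Its probe was well above background on 19 arrays. A brighter COX5A probe, placed on the other strand and saturated on 7 normal arrays, gave measured differences of −0.71 and −1.50, also without overlap. Which strand carries the RNA of COX5A was not tested. COX6C read 0.57 and −0.91 in escapers and 0.58, 0.70, 0.45 and 0.36 in normal dogs, whose 8 arrays were saturated for it. By the group means COX6C was at least 1.51-fold lower in escaper than in normal dogs, and 1 affected array was saturated for it. Without escaper 2 the measured escaper difference of COX6C was 0.044. The probe of COX6A2, the muscle form of its subunit, was clear of background on a single array of 20 and was not tested.

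Subunit 4 has 2 forms, and escaper 2 was at opposite ends of the 10 dogs for them. COX4I1, the general form, read −1.02, 0.34, 0.12 and −0.22 in affected dogs, 0.70 and −1.46 in escapers and 0.56, 0.77, 0.30 and 0.61 in normal dogs, at a probe saturated on the 8 normal arrays. COX4I2, the form best known from lung and from low oxygen, read −0.18, 0.39, 0.94 and 0.19 in affected dogs, 0.60 and 1.76 in escapers and 0.13, 0.57, 0.50 and 0.63 in normal dogs. Escaper 2 was thus the lowest dog for COX4I1 and the highest for COX4I2. COX4I1 was at least 1.47-fold lower in affected and at least 1.6-fold lower in escaper than in normal dogs. The differences of COX4I2 were −0.13 (SE 0.29) and 0.72 (SE 0.36, limma adjusted p = 0.308), and in escaper 1 alone it was 0.14.

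Complex IV had 7 measured assembly factors under these names. COX20, a chaperone of the copper-binding mtDNA subunit, read −1.20, −0.08, 0.79 and −0.10 in affected dogs, 0.56 and −0.75 in escapers and 1.18, 1.18, 1.65 and 0.65 in normal dogs, a difference of −1.32 (SE 0.43) and −1.26 (SE 0.52). COX11, which delivers copper, read −0.40, −0.50, 0.17 and −0.16 in affected dogs, 0.09 and −1.30 in escapers and 0.84, 0.27, 0.58 and 0.81 in normal dogs, a difference of −0.85 (SE 0.29) and −1.23 (SE 0.36). Affected 3 overlaps with normal dogs in COX20, while in COX11 no affected dog or escaper does. The copper chaperone COX17 differed by −0.50 and −0.90, without overlap in either comparison.

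COX15 and COX10, which make haem A and its precursor, and the insertase COX18 were nearer to normal levels. COX15 read 0.23, −0.11, −0.16 and −0.31 in affected dogs, −0.18 and −0.74 in escapers and 0.15, −0.04, 0.17 and 0.08 in normal dogs, and COX10, well above background on 12 arrays, differed by −0.12 and −0.22. COX18 read 0.30, −0.53, −0.44 and −0.33 in affected dogs, −0.77 and −0.48 in escapers and −0.15, −0.47, −0.31 and −0.05 in normal dogs, and affected 1 was its highest dog. COX7A2L, a relative of COX7A2 that joins complexes III and IV, read 0.02, 0.39, −0.21 and 0.36 in affected dogs, 0.13 and 0.34 in escapers and 0.07, 0.11, 0.13 and 0.40 in normal dogs, with differences of −0.04 (SE 0.16) and 0.06 (SE 0.20). The 10 assembly factors of complexes II and IV had a median difference of −0.28 in affected and −0.56 in escaper dogs, against −0.84 and −1.18 for the 32 structural subunits. This gap was not tested.

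**Figure D2:**
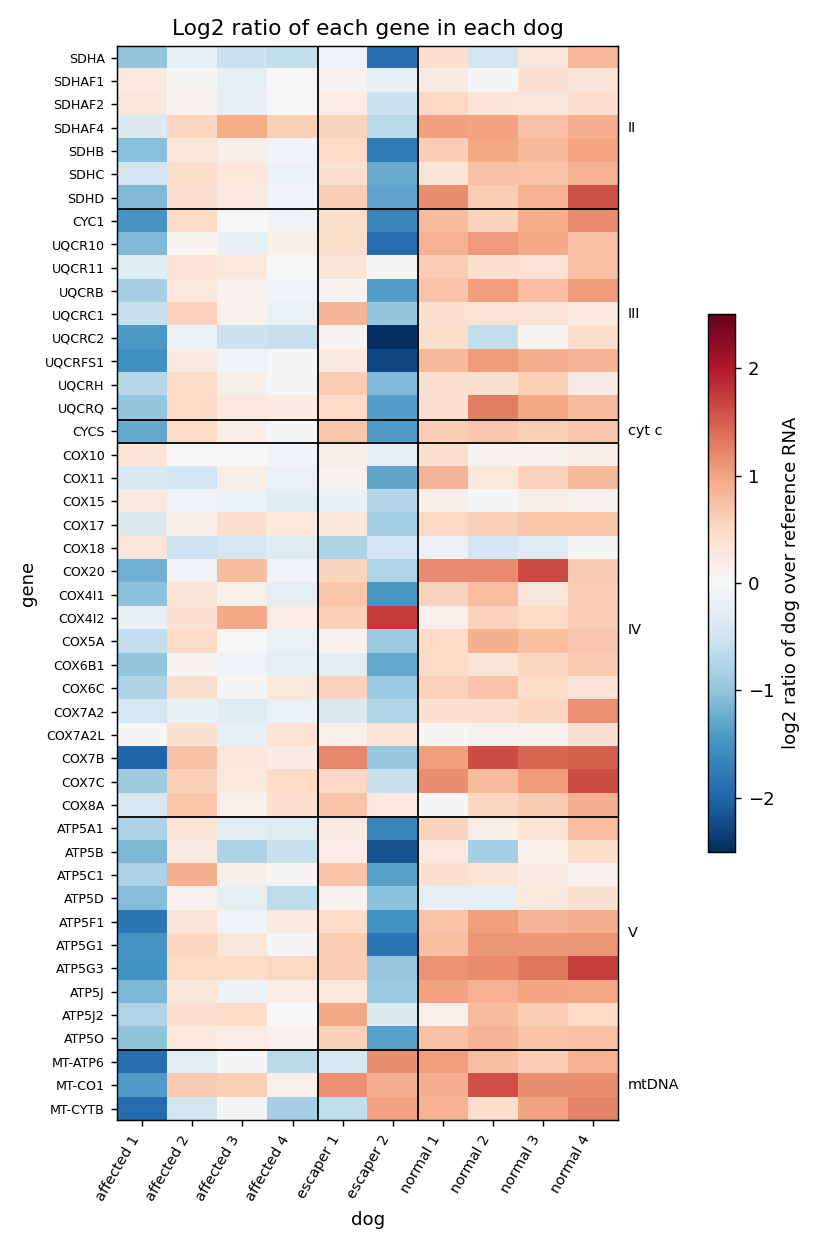
Log2 ratio of dog over reference RNA for each measured gene (rows, by complex) in each dog (columns, in the order affected, escaper, normal), red above and blue below the reference. Most nuclear genes are blue in affected 1 and escaper 2, pale in the other dystrophic dogs and red in normal dogs, while the 3 genes of mtDNA are blue in affected 1 and red in escaper 2.

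All 10 genes of complex V were lower in affected and in escaper than in normal dogs. ATP5J, coupling factor 6 of the stalk, read −1.12, 0.28, −0.15 and 0.18 in affected dogs, 0.27 and −0.93 in escapers and 1.01, 0.87, 0.99 and 0.97 in normal dogs. Groups do not overlap, and it had the smallest p among the nuclear genes of the complex in both comparisons, with −1.16 (SE 0.33, limma adjusted p = 0.265) and −1.29 (SE 0.41, adjusted p = 0.201). The second ATP5J probe gave −1.47 in affected and −1.39 in escaper dogs. ATP5F1, subunit b of the stalk, read −1.82, 0.32, −0.10 and 0.23 in affected dogs, 0.46 and −1.49 in escapers and 0.71, 1.05, 0.84 and 0.90 in normal dogs. ATP5O, which confers sensitivity to oligomycin, read −1.003, 0.26, 0.18 and 0.11 in affected dogs, 0.60 and −1.36 in escapers and 0.72, 0.85, 0.72 and 0.73 in normal dogs. Both stalk subunits, each saturated on some normal arrays, kept the groups apart, with measured differences of −1.22 and −0.87 in affected and −1.39 and −1.14 in escaper dogs.

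ATP5G1 and ATP5G3 encode the same protein of the rotating c ring from different genes. At the first probe printed, ATP5G1 read −1.47, 0.54, 0.30 and 0.03 in affected dogs, 0.61 and −1.82 in escapers and 0.74, 1.11, 1.09 and 1.10 in normal dogs. ATP5G3, measured at a probe named from its description, read −1.49, 0.49, 0.49 and 0.52 in affected dogs, 0.61 and −0.95 in escapers and 1.13, 1.18, 1.33 and 1.71 in normal dogs. At these probes neither gene showed overlap with normal dogs. Differences were −1.16 (SE 0.54) and −1.34 (SE 0.49) in affected and −1.61 (SE 0.66) and −1.503 (SE 0.60) in escaper dogs. The second ATP5G1 probe printed, saturated on 12 arrays, the 8 normal ones among them, gave measured differences of −0.28 and −0.42, with overlap. Both ATP5G1 probes are placed on opposite strands. Read from its ATG, the reverse complement of the first probe codes for the start of the ATP5G1 protein, so that probe is antisense to the messenger RNA. Its values stand for the gene in the counts, means and medians here, and may not be those of the messenger RNA. The ATP5G3 probe that carries the gene name was not well above background on any array and was not tested.

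In the catalytic head the groups overlapped. ATP5B, the catalytic beta subunit, read −1.12, 0.20, −0.77 and −0.56 in affected dogs, 0.19 and −2.17 in escapers and 0.25, −0.82, 0.13 and 0.44 in normal dogs. ATP5A1, the alpha subunit, at a probe that the files place on chromosome 31, read −0.78, 0.34, −0.26 and −0.32 in affected dogs, 0.22 and −1.68 in escapers and 0.56, 0.16, 0.34 and 0.78 in normal dogs. Normal 2 was at the level of affected 3 in ATP5B, and affected 2 overlapped with normal dogs in both. ATP5C1, the gamma subunit that turns within the head, read −0.79, 0.89, 0.15 and 0.04 in affected dogs, 0.71 and −1.35 in escapers and 0.38, 0.35, 0.20 and 0.10 in normal dogs at a probe saturated on the 8 normal arrays and 1 affected array, and was at least 1.46-fold lower in escaper than in normal dogs. ATP5B and ATP5A1 differed by −0.56 and −0.71 in affected and −0.99 and −1.19 in escaper dogs. In escaper 1 alone the difference of ATP5B from normal dogs was 0.19. ATP5D, the delta subunit, and ATP5J2, subunit f, differed by −0.52 and −0.50 in affected and −0.51 and −0.21 in escaper dogs.

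**Figure D3:**
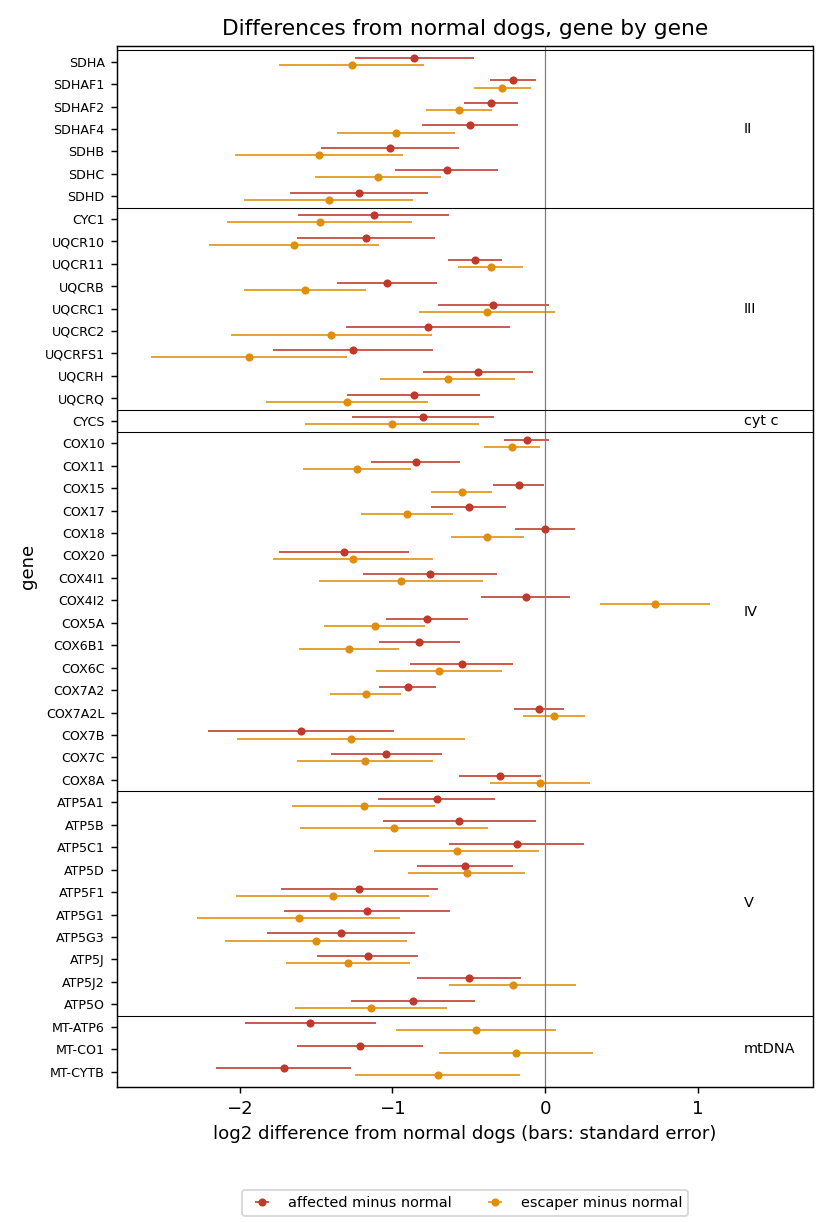
Log2 difference of affected (red) and escaper dogs (orange) from normal dogs for each measured gene, with standard errors from the limma fit, grouped by complex. Nearly all points lie left of 0, from −1.60 to −0.00 in nuclear genes of affected dogs, and COX4I2 in escapers lies at 0.72.

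The genes of mtDNA were lower in affected dogs too, but unlike the nuclear genes they were near or above normal levels in escaper 2. MT-CYTB read −1.92, −0.45, −0.06 and −0.83 in affected dogs, −0.62 and 1.01 in escapers and 0.88, 0.45, 1.01 and 1.24 in normal dogs. MT-ATP6 read −1.88, −0.27, −0.02 and −0.67 in affected dogs, −0.41 and 1.15 in escapers and 1.05, 0.75, 0.62 and 0.87 in normal dogs. In both genes escaper 2 lay in the range of normal dogs or above it, and escaper 1 among the affected dogs. At its chrM probe, MT-CO1 read −1.42, 0.65, 0.60 and 0.13 in affected dogs, 1.13 and 0.89 in escapers and 0.89, 1.60, 1.16 and 1.16 in normal dogs. Both escapers thus lay above all affected dogs at that probe. No affected dog reached a normal dog in any of the 3.

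Affected dogs differed from normal by −1.71 (SE 0.44, limma adjusted p = 0.23) for MT-CYTB, −1.54 (SE 0.43, adjusted p = 0.257) for MT-ATP6 and −1.21 (SE 0.41, adjusted p = 0.312) for MT-CO1. Without affected 1 the 3 differences were −1.34, −1.15 and −0.74. Escapers differed from normal by −0.70, −0.45 and −0.19, and from affected dogs by 1.01 (SE 0.54), 1.08 (SE 0.52) and 1.02 (SE 0.50), with limma adjusted p = 0.80 for each of the last 3. The mean of the 3 genes was −1.74, −0.02, 0.17 and −0.46 in affected 1 to 4, 0.03 and 1.02 in escaper 1 and 2, and 0.94, 0.94, 0.93 and 1.09 in normal dogs. Beside it, the mean of the 42 nuclear genes was −0.77, 0.26, 0.06 and −0.02 in affected dogs, 0.35 and −1.02 in escapers and 0.55, 0.53, 0.61 and 0.73 in normal dogs. Both means are lowest or next to lowest in affected 1, while escaper 2 has the lowest nuclear mean and an mtDNA mean that only normal 4 exceeds of the 10 dogs.

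The MT-CO1 probe placed on chromosome 20 gave 0.04 in affected and 1.09 in escaper dogs, unlike the one on chrM. A second MT-ATP6 probe was saturated on 19 arrays, so no size is given for it, and another MT-CO1 probe, saturated on 16, had flagged spots and was not tested. The MT-CO3 probe, placed on chromosome X, was well above background on 1 array and was not tested. The mtDNA values therefore rest on 1 probe for each gene. As printed, the MT-CYTB probe codes for part of cytochrome b. The MT-CO1 probe on chrM codes for part of its protein only as the reverse complement, so it is antisense to the messenger RNA. Its values, which enter the mean of the 3 mtDNA genes, may not be those of that RNA. Whether the MT-ATP6 probe reads the strand of its gene's RNA was not tested.

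**Figure D4:**
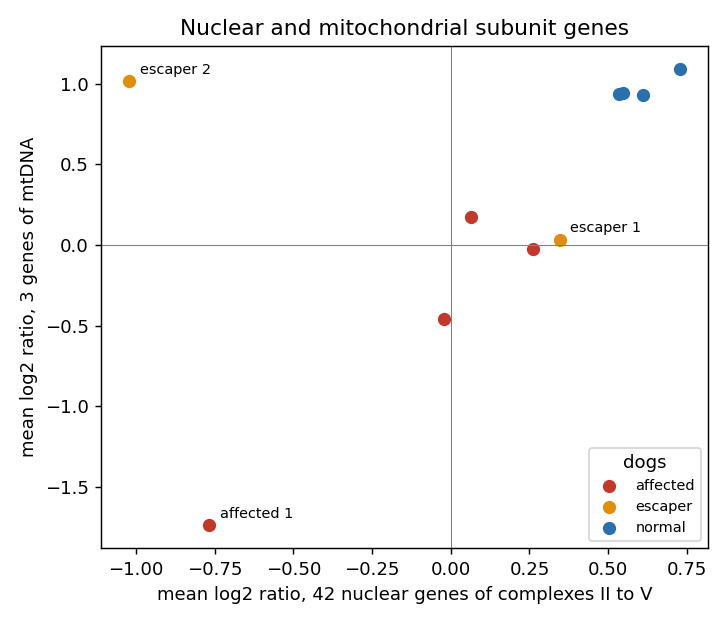
Mean log2 ratio of the 42 nuclear genes of complexes II to V (horizontal axis) and of the 3 measured genes of mtDNA (vertical axis), a point for each dog. Normal dogs sit at the top right, affected 1 at the bottom left, and escaper 2 alone at the top left.

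Between escapers and affected dogs no nuclear gene passed the threshold. The escaper value was lower in 34 of 42 genes, where 51% of all tested probes were lower, with a median difference of −0.27. None of the 42, and 0 of 16008 probes (0%), passed by limma, with 835 probes at an unadjusted p under 0.05. COX4I2 alone had an unadjusted p under 0.05, upward at 0.85 (SE 0.36, limma adjusted p = 0.8), which 2.95% of all tested probes reached. In no nuclear gene did both escapers lie above or below all affected dogs. Among mtDNA genes MT-CO1 did so upward at its chrM probe, as did 3.69% of all tested probes. Next by p were −0.37 for COX15 and −0.38 for COX18. In complex III the smallest p were those of UQCRB (−0.53), UQCRFS1 (−0.68) and UQCRC2 (−0.63), and in complex V those of ATP5A1 (−0.48), ATP5C1 (−0.39) and ATP5B (−0.43). With escaper 2 left out, 4 of 42 genes were lower in the remaining escaper. The median was 0.50 without escaper 2 and −0.50 without affected 1.

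The names that met the naming pattern without belonging to a complex differed among themselves. COX4NB, a neighbour of COX4I1 now called EMC8 and part of a protein insertion complex of the endoplasmic reticulum, read −0.04, −0.16, 0.15 and 0.01 in affected dogs, 0.12 and −0.93 in escapers and 0.56, 0.74, 0.62 and 0.75 in normal dogs. No affected dog or escaper reached a normal dog, and the differences were −0.68 (SE 0.20, limma adjusted p = 0.274) and −1.07 (SE 0.25, adjusted p = 0.189). In a fit of affected and normal dogs alone its adjusted p was 0.045. ATP5SL, now DMAC2, which helps assemble complex I, was above background on 10 arrays only and differed by −0.15 and −0.24.

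Genes of complex I and the TCA cycle had the same direction as complexes II to V. All 32 measured genes of complex I, of 38 listed, were lower in affected and in escaper than in normal dogs, with medians of −0.86 in affected and −1.18 in escaper dogs, 17 and 18 of them at an unadjusted p under 0.05, beside 7.38% and 8.78% of all tested probes. All 16 measured genes of the TCA cycle, which supplies the chain, were lower, with medians of −1.02 and −1.44. The 4 measured carriers of ATP and phosphate and creatine kinases had medians of −1.37 and −1.90. Further assembly factors of complexes II to V, 19 of 28 listed, differed less, with medians of −0.34 and −0.66, as did 12 regulators of mitochondrial biogenesis, with −0.27 and −0.48. The 10 measured genes of the outer membrane and import had −0.31 and −0.81. None of the genes in these 6 lists passed the threshold in any comparison.

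Within these lists LYRM7, which helps insert the Rieske protein UQCRFS1 into complex III, differed by −1.20 in affected and −1.18 in escaper dogs, and CMC1, a factor of complex IV, by −0.94 and −0.90. The phosphate carrier SLC25A3 differed by −1.18 and −1.30. TFB2M, a factor that starts transcription of mtDNA, differed by −0.54 and −1.23, and ESRRA, a nuclear receptor that drives respiratory genes, by −0.40 and −0.59. In TFB2M escaper 2 read −1.40, below all affected dogs.

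Markers of muscle fibres and of other cells stood apart in the same dogs. The mean of 10 of 18 listed skeletal muscle fibre genes ranged from −1.21 to 0.76 in affected dogs and from 0.24 to 0.50 in normal dogs, and was −1.21 in affected 1 and −1.39 in escaper 2, against 0.79 in escaper 1. Fast fibre genes, 6 of 11, read −2.10 in affected 1 and −1.33 in escaper 2, where normal dogs ranged from 0.32 to 0.91. Slow fibre genes, 7 of 9, ranged from −0.99 to 1.13 in affected dogs, were 0.61 and −1.74 in escapers, and ranged from −1.06 to 0.30 in normal dogs. The defining fibre genes MYH7, MYL1, DES and TTN were well above background and tested. Spots of MYLPF (18 of 20 arrays), TNNI2 (17), MYL1 (14), TNNT3 (11), DES (9), TNNC1 (7) and TTN (3) were saturated, which cuts off the fibre means.

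Fibroblast and matrix genes, 15 of 19, read 1.74 in escaper 2 and −1.23 in affected 1, with −0.33 to 0.77 in the other affected dogs, −0.26 in escaper 1 and −1.24 to −0.88 in normal dogs. Macrophage genes, 13 of 20, ranged from −1.28 to −0.15 in affected dogs, were −1.23 and 1.13 in escapers, and ranged from −1.74 to −1.38 in normal dogs. The mean of endothelial genes, 6 of 10, was 1.11 in escaper 2 and between −0.35 and 0.23 in every other dog. For the 8 adipocyte genes the mean lay between −0.22 and 0.24 in all dogs. Single adipocyte genes went further in both directions, with FABP4 at 2.75, CFD at 1.82 and LPL at −2.46 in escaper 2. Escaper 2, with the lowest nuclear respiratory mean, thus had the highest matrix and macrophage means, while affected 1, the next lowest, had a matrix mean within and a macrophage mean just above the range of normal dogs. The part of these cells in the respiratory differences was not tested.

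**Figure D5:**
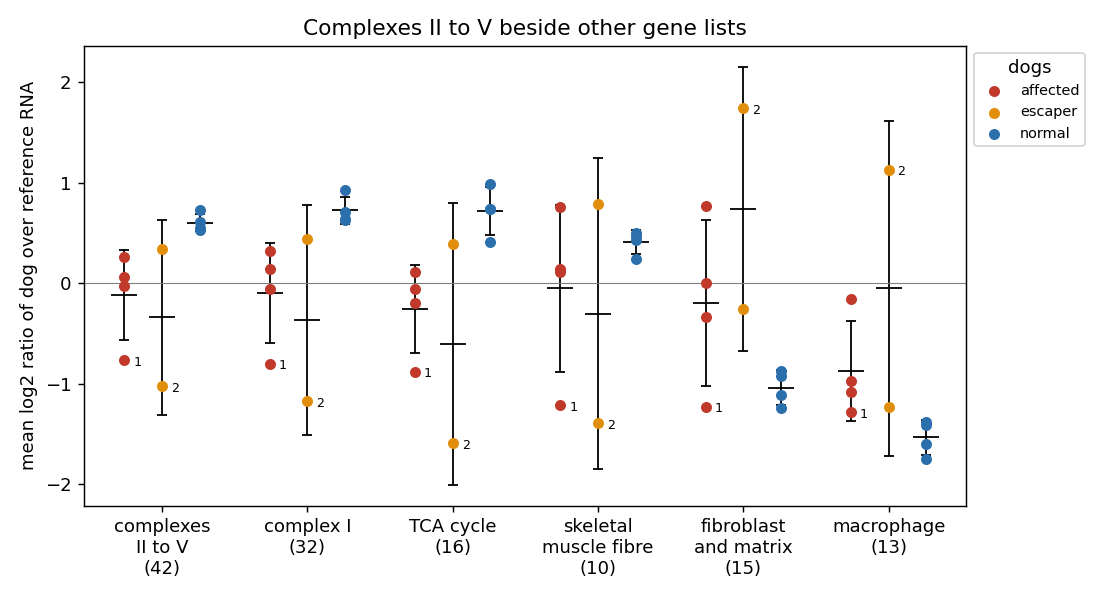
Mean log2 ratio of dog over reference RNA for complexes II to V beside complex I, the TCA cycle and markers of muscle fibres, matrix and macrophages, with a point for each dog and black bars for the group mean and SD. Affected 1 and escaper 2 are low in the first 4 lists, but matrix and macrophage genes are high in escaper 2 and not in affected 1.

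Probes of a dog agreed between its 2 arrays to a median of 0.18 to 0.32 on the log2 scale over the respiratory probes, without regard to sign. With the arrays of 1 dye alone, the median of the nuclear genes in affected dogs was −0.70 in Cy5 and −0.81 in Cy3. In escapers it was −1.15 in Cy5 and −1.13 in Cy3. The shared estimate of spread rests partly on the escapers, which differ widely from each other. In a fit of affected and normal dogs alone, 113 of 16008 probes passed, none of them of the 42 genes, and 27 of the 42 were lower at an unadjusted p under 0.05, where 9.89% of all tested probes were.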

How the data were processed

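Total muscle RNA of 10 dogs was hybridised with a common reference on 20 two-channel Agilent 4x44K canine arrays, once in each dye per dog, and, per the labels' protocols, RNA was isolated with Trizol and labelled with the Low Input Quick Amp kit. The deposited scanner files hold the authors' spot intensity in each channel with its local background, written, per the file headers, by version 9.5.3.1 of Agilent's Feature Extraction. A deposited value table holds log2 ratios that equal the log2 ratio of processed signals, dog over reference, uncentred (column medians from −0.16 to 0.27), and served only as an alternative.

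Mean intensities were corrected with normexp (offset 50) and loess-normalised within arrays in limma 3.58.1 (R 4.3.3), without control spots and flagged spots. Ratios were turned to dog over reference and averaged over the 2 arrays of a dog. Of 42034 probes, 16008 were tested. These were probes that 2 or more dogs showed well above background on each of their arrays and that had a value in every dog. One fit over the 3 groups gave the 3 comparisons, adjusted by Benjamini-Hochberg with a threshold of 0.05.

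Where a gene had several probes, one not saturated on all arrays of a group came first, then one found by gene name over one found by gene number or description, then the brightest. This order was settled after the files were seen. The members and gene lists were chosen with earlier results of these data known. Genes named with their values are all of complex II, CYCS, the mtDNA genes, the genes with the smallest p in each of the other complexes and comparisons, and those near 0, and further genes named with differences complete the complexes. The array's names are those of its design. Alternatives were other background corrections, centring, filters, probe choices, dyes, blocks and dogs left out. Each dog is a separate animal, and the number of arrays limits the precision.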

Additional observations from a re-analysis of the deposited data

Results flagged for a closer look

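In a group of 4 dogs, a dog was singled out where its gap to the nearest other dog, divided by the range of the group, was above Dixon's 95% critical value for 4 samples. Chance flags about 1 in 20 groups, and 6 of 106 were flagged. Affected 1 was low for ATP5G3 (ratio 0.986, log2 −1.49), for ATP5O (ratio 0.879, log2 −1.003) and for UQCRFS1 (ratio 0.831, log2 −1.54). Among normal dogs, normal 4 was high for the mean of the mtDNA genes (ratio 0.92, log2 1.09), normal 2 was high for ATP5O (ratio 0.93, log2 0.85), whose probe was saturated on 6 of 8 normal arrays so that the gaps among normal dogs are not exact, and normal 1 was low for ATP5G1 (ratio 0.955, log2 0.74). The groups of 2 escapers were too small for this rule.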

How the results depend on the processing

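For single genes, each was followed against normal dogs, but escaper minus affected dogs was followed in 12 genes only. Of 2598 such values under an alternative, 2495 kept their direction and their side of the threshold, 37 changed direction and 66 passed the threshold where the reported value did not. The direction of most members in affected and escaper against normal dogs thus held, but the number of calls differed between settings. Between escapers and affected dogs it did not hold, with 34 of the 42 genes below 0 as reported, 4 without escaper 2 and 39 without escaper 1. Against 3 probes called in affected and 0 in escaper dogs, processed signals and the deposited value table each gave 31 and 4, slide as a random block (correlation −0.271) 114 and 522, and all 20 arrays with dog as a block (correlation 0.542) 362 and 1067. For affected dogs the fit of 2 groups gave 113, Cy5 arrays alone 7 and Cy3 arrays alone 1, and for escapers no filter on dim probes gave 1. With dogs left out in turn, calls ranged from 0 to 113 in affected, from 0 to 3920 in escaper against normal, and from 0 to 1755 in escaper against affected dogs, the highest 2 without escaper 1, where a lone escaper is assumed to vary like other dogs. Median centring moved the median of all probes in escapers to −0.17 and gave −1.54 for complex II and −1.30 for complex IV against normal dogs and −0.50 for complex IV against affected dogs, and the cause was not tested. Under slide as a block 1 of the 42 genes passed in affected and 5 in escaper dogs, where 0.712% and 3.26% of all tested probes did. Under dog as a block 4 and 12 passed, where 2.26% and 6.67% of all tested probes did.

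The direction of COX18 in affected dogs changed under median centring (0.0092), offset 0 (0.00032) and Cy3 arrays alone (0.11). In escapers that of COX7A2L changed under median centring (−0.11), of COX8A with Cy3 arrays alone (0.050) and of MT-CO1 with the mean of its probes (0.45). With no filter the dim ATP5G3 probe gave 0.068 in affected and 0.086 in escaper dogs. For escaper minus affected dogs, among the 12 genes followed, the direction changed with 1 dog left out in ATP5A1 (−1.42 to 0.47), ATP5B (−1.61 to 0.75), ATP5C1 (−1.42 to 0.63), UQCRB (−1.27 to 0.20), UQCRC2 (−2.01 to 0.74) and UQCRFS1 (−1.93 to 0.57). For escaper minus normal dogs the direction changed with 1 dog left out in ATP5B (−2.17 to 0.19), ATP5C1 (−1.61 to 0.45), ATP5D (−1.08 to 0.057), ATP5J2 (−0.88 to 0.45), COX4I1 (−2.02 to 0.14), COX6C (−1.43 to 0.044), COX7A2L (−0.044 to 0.16), COX8A (−0.27 to 0.20), MT-ATP6 (−1.23 to 0.33), MT-CYTB (−1.52 to 0.11), UQCRC1 (−1.29 to 0.53) and UQCRH (−1.50 to 0.23). For affected minus normal dogs the direction changed with 1 dog left out in ATP5C1 (−0.46 to 0.10), COX18 (−0.18 to 0.091), COX4I2 (−0.33 to 0.045) and COX7A2L (−0.12 to 0.077). The median for escaper minus affected dogs ranged from −1.17 to 0.37 for complex II, −1.38 to 0.67 for complex III, −0.66 to 0.23 for complex IV, −1.20 to 0.67 for complex V, −1.26 to 0.85 for cytochrome c and 0.30 to 1.82 for mtDNA. The median for escaper minus normal dogs ranged from −1.91 to −0.35 for complex II, −2.30 to −0.36 for complex III, −1.45 to −0.30 for complex IV, −2.13 to −0.20 for complex V, −2.06 to 0.05 for cytochrome c and −1.23 to 0.11 for mtDNA. The values above 0 for ATP5C1, COX4I1, COX6C, UQCRC1, UQCRH and cytochrome c against normal dogs rest on saturated normal arrays. For the medians the ends come from leaving out escaper 1 or escaper 2. CYCS has no value with Cy5 arrays alone or with saturated spots left out. No paired analysis was possible because the labels give no numbers that tie dogs across groups. With 4, 2 and 4 dogs and 5 slides of 1 group each, slide effects and group effects cannot be separated, and saturation limits the brightest members.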
